A study of Mus musculus with 12 samples.

Results

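Pattern-recognition receptors are the proteins with which a cell detects molecules of microbes and of damaged cells. The genes described here are 7 of the 25124 entries of the deposited table, chosen by name and matched by gene symbol: the toll-like receptors Tlr2, Tlr3 and Tlr4, the cytosolic receptors Nod1 and Nod2, the kinase Ripk2 and the RNA sensor Ifih1 (also called MDA5). RNA was sequenced from MC3T3-E1 cells, a mouse line of bone-forming precursor cells from calvaria, in 12 libraries with 3 in each of 4 groups. They were untreated cells, cells given TNFa at 10 ng/mL, cells given BMP4 at 10 ng/mL, and cells given TNFa and then BMP4 at the same doses, all of the same line. The titles of the TNFa libraries also carry the unexplained word p65. The treatment protocol puts all cells in 2.5% serum for 30 min, places TNFa 30 min ahead of BMP4 and lets BMP4 act for 3 h, whereas the sample characteristics list 3 h for each factor. Replicate 1 of every group forms batch 1, and replicates 2 and 3 form batch 2, so both batches hold all groups. No label says that replicates were separate cultures, and each p-value then reflects how far these libraries spread, which may be technical. By its title the study concerns how Smad4, which carries BMP signals to genes, and the NF-kB subunit p65 interact in cells protected by BMP from inflammatory death.

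Toll-like receptors sit in membranes. Tlr2, which works paired with Tlr1 or Tlr6, recognizes bacterial lipoproteins at the cell surface, Tlr4 recognizes lipopolysaccharide with its co-receptors Ly96 and Cd14, and Tlr3 recognizes double-stranded RNA in endosomes. Most toll-like receptors signal through the adaptor Myd88, and Tlr3 signals through Ticam1. Nod1 and Nod2 bind fragments of bacterial cell wall in the cytosol and recruit the kinase Ripk2, which leads to activation of NF-kB. Ifih1 binds long double-stranded viral RNA and signals through Mavs. Osteoblasts are known to respond to bacterial products through such receptors, which is studied in bone infection and inflammatory bone loss.

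Levels are the deposited log2 values, and differences are on that log2 scale from limma, a linear model fitted across 11765 genes with a batch term, given with their standard error (SE). A call needs a p under 0.05 after Benjamini-Hochberg adjustment over all of these genes. All 7 genes exceeded the minimum mean level of 4 that the fit required. The deposited scale compresses differences of weakly expressed genes: against the authors' own fold changes the slope was 0.26 for genes at a level of 4 to 6, 0.55 at 6 to 8, 0.79 at 8 to 10 and 0.92 above 10. Ifih1, at a mean level of 5.33, is in the most compressed range. The authors' deposited log2 fold changes are therefore given for the members that were called.

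Tag totals were 13.7 to 15.5 M per library, and 20.6 M in TNFa+BMP4 replicate 2. Of 12 osteoblast markers 9 passed the minimum, among them Col1a1, Col1a2, Sparc, Spp1, Runx2 and Pth1r with mean levels of 17.26, 17.49, 16.33, 12.54, 10.31 and 8.83, and Alpl, Bglap and Ibsp, at 0.35, -0.03 and -1.23, did not. Of 5 cartilage markers Col2a1 and Sox9 were high, at 14.95 and 12.09, Comp was at 4.01, Matn1 at -1.73, and Acan was listed at 0 in every library. The summed log2 level of these markers was 27.92 to 28.62 in TNFa libraries, 29.09 to 29.37 in untreated, 29.07 to 29.61 in TNFa+BMP4 and 30.02 to 30.70 in BMP4 libraries. The part of that shift in the results below was not tested. Because several of the receptors are typical of leukocytes, 12 leukocyte markers were examined. Of these Adgre1, Tyrobp, Laptm5 and Cd3e were listed at 0 in every library, Ptprc had a mean of -1.97 and Spi1 one of -0.33. Lyz2 and Cd68, at 4.71 and 4.49, passed the minimum level, and Fcer1g, Itgam and Csf1r were at 2.06, 1.84 and 1.67. The summed log2 level of the list was 12.48 to 12.60 in untreated, 12.28 to 12.61 in TNFa, 12.13 to 12.65 in BMP4 and 12.28 to 12.63 in TNFa+BMP4 libraries, so the groups overlapped. In RNA from whole cultures, a change in the number of expressing cells and a change in RNA per cell cannot be told apart.

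In untreated cells the kinase and the lipopolysaccharide receptor were the most abundant of the set. On the scale of log2 level per kilobase of transcript, the order was Ripk2 at 7.17 ± 0.07 (SD, n = 3), Tlr4 at 6.61 ± 0.08, Nod1 at 6.15 ± 0.23, Tlr2 at 5.93 ± 0.30, Tlr3 at 5.47 ± 0.08, Nod2 at 4.69 ± 0.15 and Ifih1 at 2.64 ± 0.11. Nod1 and Tlr2 had overlapping libraries, and the other neighbours in this order did not. With TNFa the order became Tlr2 at 8.93 ± 0.41, Ripk2 at 8.72 ± 0.27, Nod1 at 7.28 ± 0.32, Tlr4 at 6.53 ± 0.12, Nod2 at 6.52 ± 0.04, Tlr3 at 5.69 ± 0.08 and Ifih1 at 3.43 ± 0.24. Tlr2 thus went from the fourth place to the first, although its libraries overlapped those of Ripk2, and Nod2 reached the level of Tlr4. With BMP4 alone the order was that of untreated cells. In cells given both factors Tlr2, at 9.41 ± 0.63, stood above Ripk2, at 8.48 ± 0.27, without overlap. Since the deposited values shrink low levels, distances between genes on this scale are approximate.

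TNFa against untreated cells asks how the cytokine alone alters the receptors. Tlr2, Nod2, Ripk2, Nod1 and Ifih1 rose, and Tlr3 and Tlr4 were not called. These are 5 of 7 genes called higher and 0 lower, where 9.16% of all tested genes were called higher and 6.32% lower. The 7 genes were chosen with earlier results of these data known, so such counts are a description only. The authors' deposited table also calls 5 of the 7, and 8.81% of its entries not at 0. The median difference of the 7 genes was 1.13, against -0.01 over all tested genes.

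**Figure D1:**
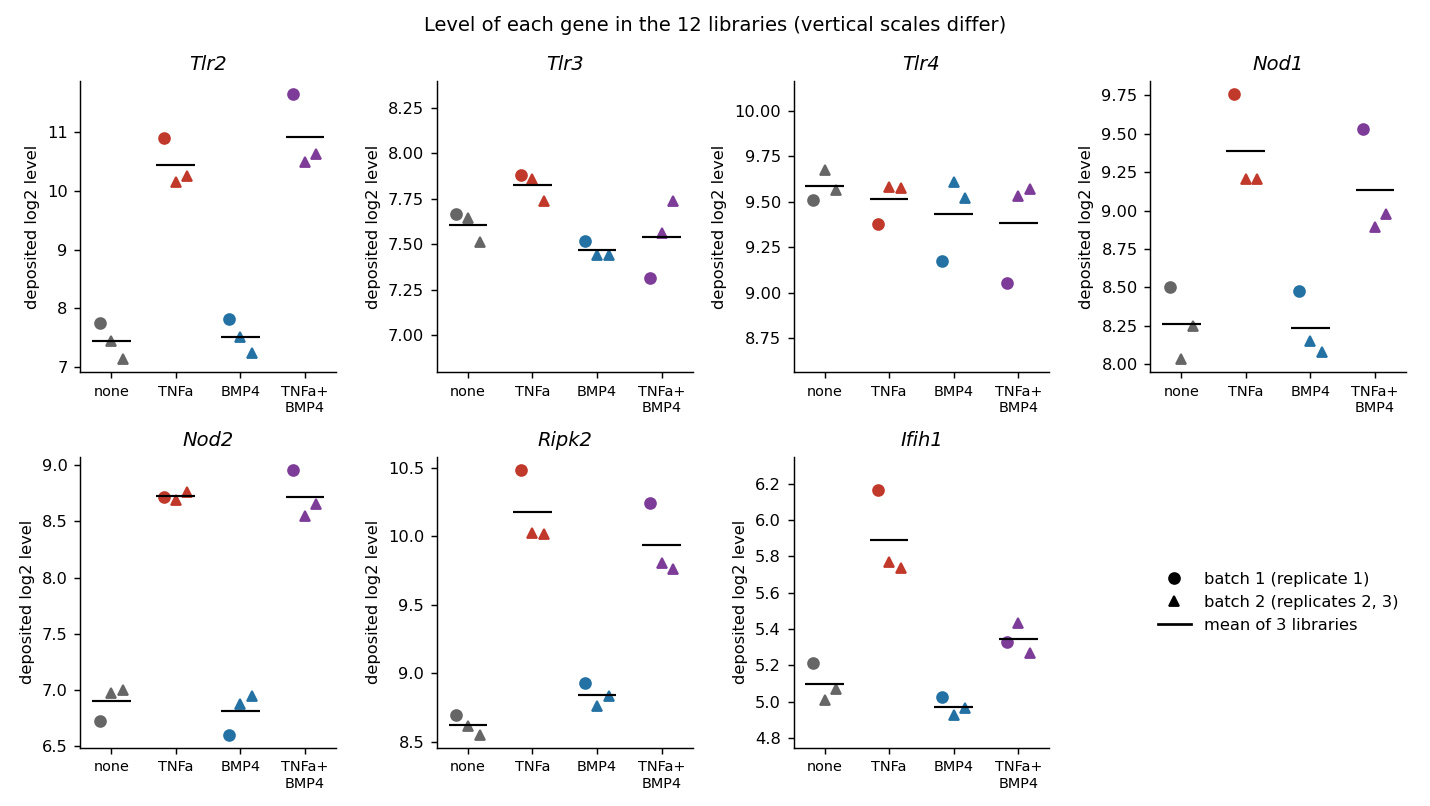
Deposited log2 level (vertical axis, scaled separately per gene) of each gene in the 12 libraries by treatment (horizontal axis). Circles are batch 1, triangles batch 2 and bars the mean of 3 libraries. Tlr2, Nod1, Nod2, Ripk2 and Ifih1 lie higher in TNFa than in untreated libraries, whereas Tlr4 stays between 9.06 and 9.67 throughout.

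Tlr2 (NM_011905) lies on chromosome 3 from 83836272 to 83841608 on the minus strand (mm10, which also applies to the positions below) and has 2850 bases of counted exon. Its untreated libraries had levels of 7.75, 7.44 and 7.14 (replicates 1, 2 and 3), and its TNFa libraries 10.90, 10.15 and 10.26. Every TNFa library was far above every untreated library, and the batch 1 library was the highest of each group. The fitted rise was 2.99 ± 0.11 (limma, adjusted p = 1.96e-14), with 3.15 in batch 1 and 2.91 in batch 2, and the authors' deposited log2 fold change was 3.61. On the deposited scale it took place 5 among the rises of all 11765 genes. That scale compresses weakly expressed genes, which also affects the places given below.

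Tlr4 (NM_021297; chromosome 4, 66827551 to 66846581, plus strand) did not follow Tlr2. Its levels were 9.51, 9.67 and 9.57 in untreated and 9.38, 9.58 and 9.58 in TNFa libraries, and these overlapped. The difference was -0.07 ± 0.07, with a 95% interval of -0.22 to 0.08 (limma, adjusted p = 0.587). A change as large as that of Ifih1 or any of the other called receptors lies outside this interval.

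Tlr3 (NM_126166; chromosome 8, 45395665 to 45410619, minus strand) had levels of 7.67, 7.64 and 7.51 in untreated and 7.88, 7.86 and 7.74 in TNFa libraries. The groups did not overlap, but the difference of 0.22 ± 0.09 did not pass (limma, adjusted p = 0.133; unadjusted p = 0.0296). It was the same in both batches, at 0.22. The authors' deposited table gives 0.30 with an adjusted p of 0.209.

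Nod2 (NM_145857; chromosome 8, 88647347 to 88688474, plus strand), the receptor for muramyl dipeptide, had levels of 6.72, 6.97 and 6.99 in untreated and 8.72, 8.69 and 8.76 in TNFa libraries. The TNFa libraries lay close together. The fitted batch term, common to all groups, was 0.05 ± 0.08 (adjusted p = 0.572, limma), but batches differed in opposite directions between groups. Batch 1 was below batch 2 in untreated libraries and in BMP4 libraries (6.60 against 6.88 and 6.94). It was above batch 2 in TNFa+BMP4 libraries (8.96 against 8.55 and 8.66). The rise was 1.83 ± 0.11 (limma, adjusted p = 3.15e-11), place 28 among all genes, and the authors' deposited value was 2.51. Nod1 (NM_172729; chromosome 6, 54923942 to 54972612, minus strand), its relative with a different cell-wall ligand, started from a higher level and rose less. Its levels were 8.50, 8.03 and 8.25 in untreated and 9.76, 9.21 and 9.20 in TNFa libraries, without overlap. The rise was 1.13 ± 0.07 (limma, adjusted p = 2.84e-10), place 72, with 1.26 in batch 1 and 1.06 in batch 2; the authors' deposited value was 1.36.

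Ripk2 (NM_001329751; chromosome 4, 16122741 to 16163643, minus strand) rose together with both receptors that use it. Levels were 8.69, 8.62 and 8.55 in untreated and 10.48, 10.03 and 10.02 in TNFa libraries. All TNFa libraries exceeded all untreated ones. The rise was 1.55 ± 0.07 (limma, adjusted p = 1.58e-12), place 40, and the authors' deposited value was 1.80.

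Ifih1 (NM_027835; chromosome 2, 62595793 to 62646255, minus strand) was the weakest gene of the set, at 5.21, 5.01 and 5.07 in untreated and 6.17, 5.77 and 5.73 in TNFa libraries. Again there was no overlap. The rise was 0.79 ± 0.09 (limma, adjusted p = 5.54e-07), place 153. The authors' deposited value was 2.01, larger than theirs for Nod1 and Ripk2, so the place of Ifih1 among the raised receptors depends on the scale. Across batches, Tlr2, Nod1, Ripk2 and Ifih1 were lower in batch 2 than in batch 1, by 0.67 ± 0.08 for Tlr2 at the most, and Tlr4 was higher by 0.30 ± 0.05 (limma, adjusted p between 3.91e-07 and 0.0329).

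Promoters were examined because Tlr2, Nod1, Nod2, Ripk2 and Ifih1 rose under TNFa, a factor that activates NF-kB. The activity of NF-kB was not measured here. RefSeq promoter windows (GRCm38.p6, the same build) were matched for 5 of the 7 genes by symbol; Tlr4 and Ripk2 are the others. The 250 bases before the annotated start are printed for Tlr2 and Nod2, which had the largest rises, from 5′ to 3′ on the strand of the gene, with matches to the NF-kB (kB) consensus in capitals. The Tlr2 window is chr3:83841609-83841858, minus strand, and the Nod2 window is chr8:88647097-88647346, plus strand.
Tlr2: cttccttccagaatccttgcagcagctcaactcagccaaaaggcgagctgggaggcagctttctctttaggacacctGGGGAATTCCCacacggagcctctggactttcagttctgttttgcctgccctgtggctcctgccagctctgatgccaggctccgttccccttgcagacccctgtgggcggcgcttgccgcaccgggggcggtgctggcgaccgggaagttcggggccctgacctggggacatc
Nod2: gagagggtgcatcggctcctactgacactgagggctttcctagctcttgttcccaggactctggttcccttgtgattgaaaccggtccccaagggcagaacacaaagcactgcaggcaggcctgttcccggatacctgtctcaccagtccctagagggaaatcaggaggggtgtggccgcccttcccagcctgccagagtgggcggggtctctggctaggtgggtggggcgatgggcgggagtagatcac

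The Tlr2 window held 3 matches to the kB consensus over both strands, at 2 overlapping positions that together covered 11 bases, from 173 to 163 bases before the start (chromosome 3, 83841771 to 83841781). The Nod2, Nod1 and Ifih1 windows held none, although these genes also rose, and 2 windows were searched for Nod1. Tlr3, which was not called, held the match GGGAGTTTCC (chromosome 8, 45410582 to 45410591); its RefSeq start lies 239 bases inside the transcript of the deposited table, so the match falls within that transcript. Of 32851 windows of the same length, 3.9% held a kB match. The motifs GAAA, any 2 bases, GAAA (the core of elements bound by interferon-regulatory factors, 2.98% of windows), TGANTCA (AP-1, 6.75%) and GTCTAGAC (a Smad palindrome, 0.167%) were searched on both strands and matched in none of the windows of these 5 genes. A match describes letters only.

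BMP4 against untreated cells asks whether the bone morphogenetic protein by itself alters these genes. No member was called by limma or in the authors' deposited table, where limma called 12.2% of all tested genes and the authors called 4.88% of entries not at 0. At an unadjusted p under 0.05 there were 2 members, Ripk2 and Tlr4, beside 25.8% of all tested genes.

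Ripk2 came nearest to a call. The BMP4 libraries had levels of 8.93, 8.76 and 8.83, each above all 3 untreated libraries. The difference was 0.22 ± 0.07 (limma, adjusted p = 0.0602; 0.27 in the authors' deposited table, adjusted p = 0.195). Omitting single libraries gave 2 calls in 6 fits, without BMP4 replicate 1 (0.29, limma, adjusted p = 0.0245) and without untreated replicate 2 (0.27, adjusted p = 0.0414). Over these fits the lowest difference was 0.14 and the largest adjusted p 0.362, the latter without untreated replicate 1.

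For the other members the untreated and BMP4 libraries overlapped across batches. For Tlr3, Nod2 and Ifih1 each BMP4 library was below every untreated library of its own batch. The share of all tested genes with such an order was not counted, so it is a description only. None of the differences of these other members was called. The BMP4 libraries had levels of 7.82, 7.51 and 7.23 for Tlr2, and the difference was 0.07 with a 95% interval of -0.16 to 0.30. For Nod1 the difference was -0.03 (-0.18 to 0.13), for Nod2 -0.09 (-0.31 to 0.13), for Ifih1 -0.12 (-0.30 to 0.06; -0.57 in the authors' deposited table, adjusted p = 0.65) and for Tlr3 -0.14 (-0.34 to 0.05). Tlr4 had -0.15 (-0.30 to -0.00026; unadjusted p = 0.0496, adjusted p = 0.193 in limma), which was -0.34 in batch 1 and -0.06 in batch 2. None of these fitted intervals reaches 0.79 in size, the smallest called rise under TNFa on the same scale.

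**Figure D2:**
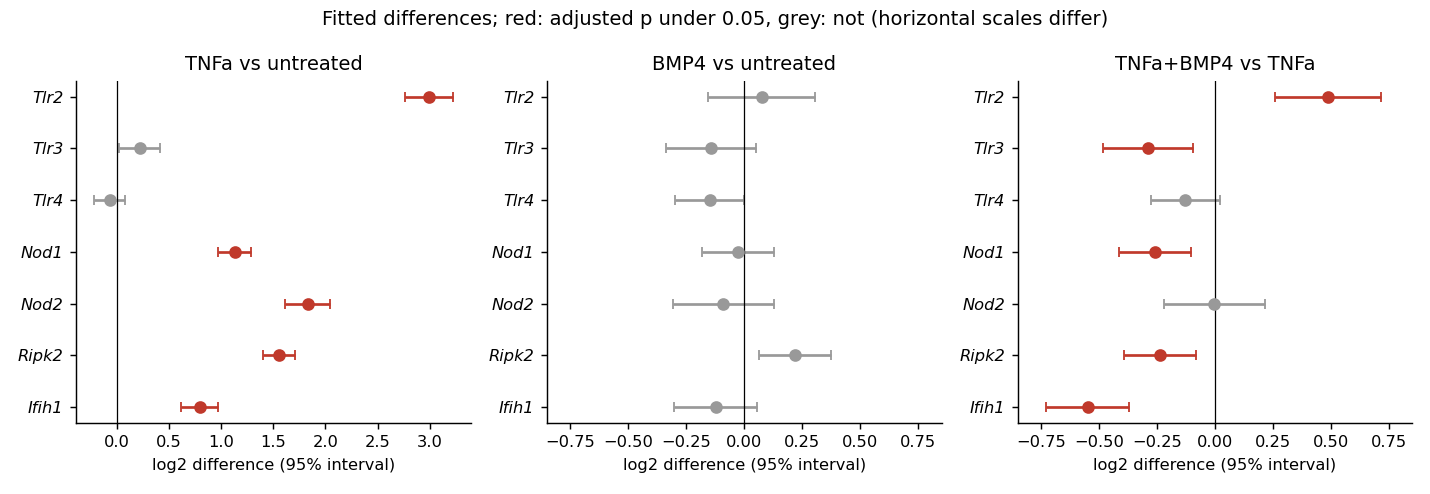
Fitted log2 difference of each gene (point) with its 95% interval (bar) for TNFa against untreated, BMP4 against untreated and TNFa+BMP4 against TNFa; the horizontal axes differ in range. Red genes passed an adjusted p of 0.05: 5 under TNFa, 0 under BMP4, and 5 when BMP4 was added to TNFa, of which only Tlr2 was higher.

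Adding BMP4 to TNFa, compared with TNFa alone, moved the genes that TNFa had raised in different directions. Tlr2 was higher, Ifih1, Nod1 and Ripk2 were lower, Tlr3 was lower and Nod2 and Tlr4 were not called. That is 1 member higher and 4 lower, where 5.47% of all tested genes were called higher and 6.2% lower. The authors' deposited table calls 4 of the 7, all but Tlr3 among these 5, and 7.06% of its entries not at 0. The median difference was -0.24, against 0.00 over all tested genes.

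Ifih1 had the firmest decrease. TNFa+BMP4 libraries had levels of 5.33, 5.43 and 5.27, all below the TNFa libraries (5.73 to 6.17) and all above the untreated ones (5.01 to 5.21). The difference from TNFa was -0.55 ± 0.09 (limma, adjusted p = 0.000185), place 58 among the decreases of all genes. It was -0.84 in batch 1 and -0.40 in batch 2, was called in all 6 fits that omitted a library, and is -1.18 in the authors' deposited table (adjusted p = 0.000527).

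Tlr2 went the other way. TNFa+BMP4 libraries had levels of 11.64, 10.49 and 10.63, against 10.90, 10.15 and 10.26 with TNFa, so each exceeded the TNFa libraries of its own batch although the groups overlapped. The difference was 0.49 ± 0.11 (limma, adjusted p = 0.0054), with 0.74 in batch 1 and 0.36 in batch 2, and the authors' deposited value was 0.53 (adjusted p = 5.53e-09). Without TNFa+BMP4 replicate 1 the fitted difference was 0.30 and did not pass (adjusted p = 0.0705).

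The Nod1 and Ripk2 decreases were small and close to the threshold. Nod1 had levels of 9.53, 8.89 and 8.98 with both factors, each below the TNFa libraries of its batch, and a difference of -0.26 ± 0.07 (limma, adjusted p = 0.028). Ripk2 had 10.24, 9.81 and 9.76, again each below, and a difference of -0.24 ± 0.07 (limma, adjusted p = 0.0426). Each was nearly equal in both batches, at -0.23 and -0.27 for Nod1 and -0.24 and -0.24 for Ripk2. For either gene 1 of 6 fits that omitted a library kept the call, with a largest adjusted p of 0.153 for Nod1 and 0.271 for Ripk2, both without TNFa replicate 1. In the authors' deposited table both passed, at -0.30 (adjusted p = 0.0105) for Nod1 and -0.26 (adjusted p = 0.00318) for Ripk2. With the replicate number as a block Ripk2 did not pass (adjusted p = 0.057) and Nod1 did.

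Nod2 had levels of 8.96, 8.55 and 8.66 with both factors, above the TNFa library in batch 1 and below the TNFa libraries in batch 2. Its difference was 0.00 ± 0.11, with a 95% interval of -0.22 to 0.22 (limma, adjusted p = 0.992). Tlr3 had 7.31, 7.56 and 7.74, a wider spread than in the other groups. Its difference of -0.29 ± 0.09 was just called (limma, adjusted p = 0.0491; -0.40 in the authors' deposited table, adjusted p = 0.118), but it was -0.57 in batch 1 and -0.15 in batch 2. Without TNFa+BMP4 replicate 1 it was -0.15 (adjusted p = 0.392), 1 of 6 fits that omitted a library kept the call, and with the replicate block the adjusted p was 0.0641. Tlr4 had 9.06, 9.53 and 9.57 and a difference of -0.13 ± 0.07 (limma, adjusted p = 0.278).

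Cells given both factors were also compared with each single background. Against untreated cells 5 members were higher and 1 lower, beside 16.8% and 14.4% of all tested genes. The authors' deposited table calls 4 of the 7, and 14.3% of its entries not at 0. The split over all genes depends on scaling: 1973 were higher and 1700 lower as deposited, and 1643 and 2020 after quantile normalization. Tlr2 was higher by 3.48 ± 0.11, Nod2 by 1.83 ± 0.11, Ripk2 by 1.32 ± 0.07 and Nod1 by 0.87 ± 0.07 (limma, adjusted p from 1.71e-15 to 1.4e-08). The authors' deposited values are 4.14, 2.50, 1.53 and 1.06 in the same order. Ifih1 was higher by 0.25 ± 0.09 (limma, adjusted p = 0.0332), a call kept in 1 of 6 fits that omitted a library (largest adjusted p 0.185, without TNFa+BMP4 replicate 2) and that the authors' deposited table, with 0.81, does not make (adjusted p = 0.144). Tlr4 was lower by -0.20 ± 0.07 (limma, adjusted p = 0.039), but by -0.46 in batch 1 and -0.07 in batch 2. That call was kept in 2 of 6 fits that omitted a library and failed without TNFa+BMP4 replicate 1 (-0.11, adjusted p = 0.301), without untreated replicate 1 (-0.12, adjusted p = 0.294) and in the authors' deposited table (-0.23, adjusted p = 0.138).

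Against BMP4 alone, which gives the response to TNFa in the presence of BMP4, 5 members were higher and 0 lower, beside 8.78% and 7.41% of all tested genes. The authors' deposited table calls the same number, 5, and 8.23% of its entries not at 0. Tlr2 was higher by 3.41 ± 0.11, the second largest rise of all genes, and Nod2 by 1.92 ± 0.11, Ripk2 by 1.10 ± 0.07, Nod1 by 0.90 ± 0.07 and Ifih1 by 0.37 ± 0.09 (limma, adjusted p from 3.4e-15 to 0.00411). The authors' deposited values are 4.05, 2.70, 1.27, 1.11 and 1.38 in the same order, so that there Ifih1 stands above Ripk2 and Nod1. The Ifih1 call was lost without the batch term (adjusted p = 0.137). Tlr3 had 0.07 ± 0.09 and Tlr4 -0.05 ± 0.07.

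**Figure D3:**
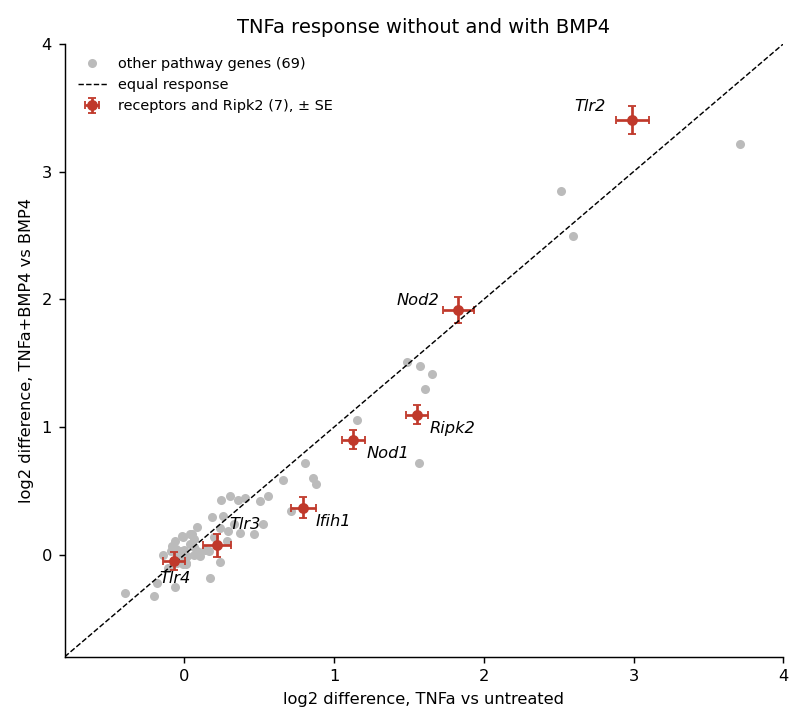
Log2 difference for TNFa against untreated (horizontal) and for TNFa+BMP4 against BMP4 (vertical); red points are the 7 genes with SE bars, grey points 69 other genes of the same pathways, and the dashed line marks equal responses. Tlr2 (2.99 and 3.41) lies above the line, and Ripk2 (1.55 and 1.10), Ifih1 (0.79 and 0.37) and Nod1 (1.13 and 0.90) lie below it; the interaction was not called for any of the 7.

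Whether the response to TNFa itself differed with BMP4 was tested by the interaction term. Limma called 2 of 11765 genes (0.017%), and none of the 7. At an unadjusted p under 0.05 there were 4 members, beside 4.76% of all tested genes. Ripk2 had -0.46 ± 0.11 (unadjusted p = 0.00031, adjusted p = 0.304), place 23 from the most negative value of all genes. Ifih1 had -0.43 ± 0.12 (unadjusted p = 0.00218, adjusted p = 0.596), Tlr2 0.41 ± 0.16 (unadjusted p = 0.0153, adjusted p = 0.928) and Nod1 -0.23 ± 0.10 (unadjusted p = 0.0401, adjusted p = 0.993). Nod2 had 0.09 ± 0.15 and was 0.36 in batch 1 and -0.05 in batch 2, Tlr3 had -0.15 ± 0.13, and Tlr4 0.02 ± 0.10. Omitting single libraries called Ripk2 in 0 of 12 fits (limma, largest adjusted p 0.708). In batch 2 alone, a fit with 8 of the same libraries, Ripk2 was called (-0.45, limma, adjusted p = 0.0327), and 15 of 11765 genes were called in all. For the other 6 members no interaction was called in that fit either.

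The genes around the receptors were described from 6 lists, of which 69 genes outside the 7 were tested and another 32 of those found in the table were below the minimum level. The lists too were chosen with earlier results of these data known. Under TNFa 27 of the 69 rose and 2 fell, beside 9.16% and 6.32% of all tested genes. With BMP4 alone 2 were higher and 8 lower, where 12.2% of all tested genes were called in either direction. These 10 calls became 6 without BMP4 replicate 1 or untreated replicate 3, 5 in the authors' deposited table and 0 without the batch term. When BMP4 was added to TNFa 0 were higher and 8 lower, beside 5.47% and 6.2% of all tested genes, and 0 were called without the batch term. Among the toll-like receptors and co-receptors, 1 of 7 rose and 1 fell. Lbp, a carrier of lipopolysaccharide, rose by 0.66 ± 0.09 and Tlr5, the flagellin receptor, fell by 0.40 ± 0.10 (limma, adjusted p = 7.42e-06 and 0.00605). The partners of Tlr2 and Tlr4 were weakly expressed and not called under TNFa: Tlr6 had a mean level of 4.93 and a difference of -0.11 ± 0.08, Cd14 5.91 and -0.02 ± 0.08, and Ly96 5.01 and 0.18 ± 0.08. Ly96 was called higher with TNFa in the presence of BMP4 (0.30 ± 0.08, limma, adjusted p = 0.0103). Tlr1, at 2.53, and Tlr7, Tlr12 and Tlr13 were below the minimum, and Tlr8, Tlr9 and Tlr11 were listed at 0 in every library.

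Of the adaptors and kinases of toll-like receptors 3 of 13 rose with TNFa and 0 fell: the ubiquitin ligase Traf3 (1.15 ± 0.06), the kinase Irak2 (0.50 ± 0.08) and the adaptor Myd88 (0.41 ± 0.10). With BMP4 alone Irak2 (-0.38 ± 0.08) and Irak3 (-0.28 ± 0.08), an inhibitory member of that kinase family, fell, and Irak2 was lower by -0.46 ± 0.08 when BMP4 was added to TNFa (limma, adjusted p = 0.000541). Of the partners of the Nod receptors and Ripk2, 6 of 21 rose and 1 fell under TNFa. The editing enzyme Tnfaip3 (A20), which removes ubiquitin chains from Ripk2, rose by 2.52 ± 0.11, and the ubiquitin ligases Birc3 and Birc2 rose by 1.57 ± 0.12 and 0.86 ± 0.07. The kinase subunit Ikbkb, the ligase subunit Rnf31 and the deubiquitinase Cyld also rose, by 0.20 ± 0.05, 0.29 ± 0.07 and 0.56 ± 0.05, and Erbin, a binding partner of Nod2, fell by 0.20 ± 0.06 (limma, adjusted p = 0.0338). Cyld was lower by -0.32 ± 0.05 when BMP4 was added to TNFa (limma, adjusted p = 0.000302). The difference was -0.05 ± 0.06 for Xiap, the ligase that modifies Ripk2, and 0.09 ± 0.05 for the kinase Map3k7, and neither was called.

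The RNA-sensing list had the largest share of calls under TNFa outside the receptors, with 9 of 13 higher and 0 lower. Of all tested genes 9.16% were higher and 6.32% lower. The median of the list was 0.36. Ddx58 (RIG-I), the sensor of short viral RNA, and the relative of Ifih1, rose from 9.46 ± 0.12 to 10.95 ± 0.18 (mean log2 ± SD), by 1.49 ± 0.06 (limma, adjusted p = 1.94e-13). The third member of that helicase family, Dhx58, rose by 0.46 ± 0.10, whereas their common adaptor Mavs had -0.06 ± 0.06 and was not called. Dhx58, at a mean level of 5.27, is in the most compressed range and Ddx58, at 10.01, in the least. The sizes of their rises are therefore not comparable. Ifit1, at a mean level of 5.51, rose by 1.57 ± 0.16 and the kinase Ikbke by 0.88 ± 0.10 (limma, adjusted p = 3.37e-07 and 7.55e-07). When BMP4 was added to TNFa, 4 of the 13 were lower and 0 higher, beside 6.2% and 5.47% of all tested genes. The lower genes were Ddx58 (-0.37 ± 0.06), Eif2ak2 (-0.33 ± 0.06), a kinase that binds double-stranded RNA, the interferon-induced Ifit1 (-0.68 ± 0.16) and the transcription factor Irf7 (-0.26 ± 0.09). The adjusted p was 0.000401, 0.00148, 0.00888 and 0.0489 in this order (limma). Irf7, at a mean level of 4.95, was thus just called. Without the batch term 0 list genes were called in this comparison. Ifih1, with -0.55 ± 0.09, moved the same way. BMP4 alone lowered Ddx58 (-0.40 ± 0.06) and Mavs (-0.24 ± 0.06).

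**Figure D4:**
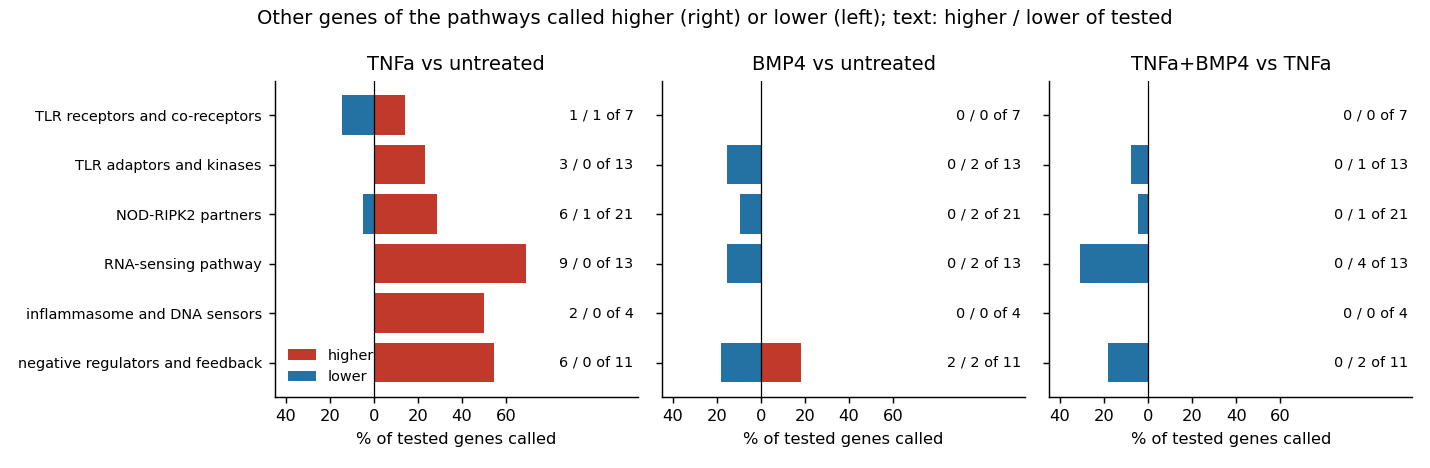
Share of tested genes called higher (red, right) or lower (blue, left) in 6 lists of related genes, for TNFa against untreated, BMP4 against untreated and TNFa+BMP4 against TNFa; the text beside each bar gives higher / lower of tested. RNA-sensing genes stand at 9 of 13 higher under TNFa and 4 of 13 lower after adding BMP4, among them Irf7 close to the threshold. Of all tested genes 9.16% were higher under TNFa and 6.2% lower after adding BMP4. Without the batch term 0 list genes were called after adding BMP4.

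Most inflammasome genes and DNA sensors, 11 of the 15 in the table, were below the minimum, among them Nlrp3, Aim2, Pycard and Casp1. Of the 4 tested genes the inflammatory caspase Casp4 rose by 1.61 ± 0.09 and the DNA sensor Cgas by 0.29 ± 0.08 under TNFa, and 0 fell. Of the negative regulators 6 of 11 rose and 0 fell, with the NF-kB inhibitors Nfkbie (3.71 ± 0.05) and Nfkbia (2.60 ± 0.13) and the A20 partner Tnip1 (1.65 ± 0.05). Nfkbie was 1 of the 2 genes with a called interaction, at -0.49 ± 0.07 (limma, adjusted p = 0.02). That call was lost with no minimum level, without the batch term and on leaving out any TNFa library, untreated replicate 3, BMP4 replicate 2, or TNFa+BMP4 replicate 2 or 3. Nfkbie was lower by -0.33 ± 0.05 when BMP4 was added to TNFa, as was Tnip1 by -0.18 ± 0.05 (limma, adjusted p = 0.000221 and 0.0381). The immediate-early phosphatase Dusp1 was higher with BMP4 alone (0.61 ± 0.10, limma, adjusted p = 0.000293). In the same comparison the A20 partner Tnip2 (-0.33 ± 0.09), the NF-kB regulator Nfkbiz (-0.29 ± 0.09), Tnfaip3 (-0.39 ± 0.11) and Cyld (-0.23 ± 0.05) were lower (limma, adjusted p between 0.00746 and 0.0385). Nfkbie was higher there (0.16 ± 0.05, limma, adjusted p = 0.0463), close to the threshold. Thus 2 of the 11 negative regulators were higher and 2 lower, where 12.2% of all tested genes were called in either direction. Without the batch term 0 list genes were called with BMP4 alone.

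Genes with the most similar pattern were found by the correlation over the 12 libraries after each batch was centred, as a description only, since all libraries are shared and TNFa separates them. Tlr2 was most like the chemokine Ccl2 (r = 0.99), the growth factor Csf1 (r = 0.99) and Bcl3 (r = 0.99), and Nod2 most like Ccl2, Bcl3 and Birc3 (r = 1.00, 1.00 and 0.99). The genes most like Ripk2 were C3, Ets1 and Cd47, and those most like Nod1 were Nab1, C3 and Tnip1, all at r = 0.99. Ifih1 was most like Ifit3, Exoc3l4 and Il12rb2, at r = 0.99, 0.98 and 0.98. Among the members themselves Tlr2 and Nod2 had r = 0.99 and Nod1 and Ripk2 r = 0.98. Ifih1 had r = 0.88 with Nod1, 0.84 with Ripk2, 0.79 with Nod2 and 0.73 with Tlr2. Tlr3 and Tlr4 had r between -0.35 and 0.49 with Tlr2, Nod1, Nod2 and Ripk2. With Ifih1 the value was 0.76 for Tlr3 and 0.14 for Tlr4, and between Tlr3 and Tlr4 it was 0.59.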

How the data were processed

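RNA-seq of polyA RNA (150 bp paired-end reads) from 12 MC3T3-E1 libraries in 4 groups was used. Trim Galore, HISAT2 and HOMER and the build mm10 are named in the submitters' processing notes, without versions. Reads over the exons of 1 transcript per gene were counted by HOMER and differences tested with batch as a factor, per the file headers. The deposited library columns hold log2 values that are not adjusted for batch, with a transformation not given in the sources used here. The authors' log2 fold changes and p-values are deposited in the same table. Batch numbers are swapped between header and labels, and those of the labels are used.

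From these values limma 3.58.1 in R 4.3.3 was fitted on 4 groups plus batch with a variance trend and 7 residual degrees of freedom, requiring a mean of 4 or more on the log2 scale (11765 of 17701 genes not at 0 throughout). Contrasts were 5 pairs of groups and the interaction, and all p-values are two-sided. The fit was tested on simulated data. Tag totals per library bear on precision, but the deposited values carry no counts, so no counting interval is given. Replicate numbers were not taken to pair the libraries beyond batch (correlations of replicate differences 0.02 to 0.16 in batch 2). These low positive correlations cannot exclude pairing, and a fit with the replicate number as a block is in the closing section.

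Members and lists were chosen with earlier results of these data known. Named genes were drawn from the 7 members, up to 3 called genes with the largest absolute change per list and contrast, and the 3 most similar genes per member. Not every gene picked in this way is named. The genes most similar to Tlr3 and Tlr4 are left out. So are most list genes picked for both factors against untreated or against BMP4. Ikbkb, Rnf31, Cyld and Erbin under TNFa, Nfkbie with BMP4 alone, Tlr6, Cd14, Ly96, Xiap, Map3k7, Dhx58, Mavs, Cgas, Irf7, markers and genes below the minimum were named for their roles. Alternatives are in the closing section.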

Additional observations from a re-analysis of the deposited data

Results flagged for a closer look

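The Ripk2 differences for BMP4 had opposite signs in the absence and presence of TNFa. Compared with every control library of the same batch, each BMP4 library was higher than untreated and each TNFa+BMP4 library was lower than TNFa. Without TNFa the difference was not called (0.22, adjusted p = 0.0602, limma), and with TNFa it was called (-0.24, adjusted p = 0.0426) but kept the call in 1 of 6 fits that omitted a library. The difference between these effects was -0.46 ± 0.11 on the log2 scale (limma, unadjusted p = 0.00031). It did not pass adjustment over all genes with 12 libraries (adjusted p = 0.304). Omitting single libraries called it in 0 of 12 fits (limma, largest adjusted p 0.708). It passed in batch 2 alone (-0.45, limma, adjusted p = 0.0327), and in 20 of 21 alternatives it stayed uncalled. That fit uses a part of the same libraries and called 15 genes, against 2 with all libraries.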

How the results depend on the processing

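The 5 rises under TNFa, in the absence and in the presence of BMP4, kept their calls in all fits that omitted a library; without the batch term Ifih1 in the presence of BMP4 lost its call (adjusted p = 0.137). Over all results and alternatives 870 outcomes were the same, 50 weaker, 4 stronger, 59 moved and 21 reversed. The count of members called when BMP4 was added to TNFa depended most on the setting: 5 as reported, 3 without the variance trend, 2 with no minimum level, 0 without the batch term, and 2 to 3 without single libraries. All genes called in that comparison were 906 with no minimum level and 752 to 1066 without single libraries. Without the batch term the counts of all genes fell to 383 for TNFa, 114 for BMP4 and 869 for both factors against untreated, 105 for both factors against TNFa and 345 against BMP4. For BMP4 against untreated, the authors' deposited test called 864 genes, and omitting single libraries gave 756 to 1332 genes and 0 to 1 members. Interaction calls over all genes were 0 with no minimum level, 0 without batch, 1 with quantile normalization, 15 in batch 2 alone and 0 to 7 without single libraries. In batch 2 alone 1 member was called for BMP4 against untreated and 1 for the interaction (Ripk2 in both), and uncalled values turned to 0.071 for Tlr3 with both factors against untreated and -0.050 for the Nod2 interaction. The cause of these shifts was not tested.

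Among uncalled differences, omitting single libraries moved Tlr4 under TNFa between -0.13 and 0.013. With BMP4 it moved Tlr2 between -0.038 and 0.19, Nod1 between -0.075 and 0.050 and Nod2 between -0.18 and 0.024. With both factors Tlr3 moved between -0.17 and 0.070 against untreated and between -0.031 and 0.21 against BMP4, Tlr4 between -0.095 and 0.038 against BMP4, and Nod2 between -0.18 and 0.10 against TNFa. Interactions moved between -0.063 and 0.11 for Tlr4 and between -0.095 and 0.19 for Nod2.

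With the replicate number as a block, 3 members were called when BMP4 was added to TNFa (Tlr3 and Ripk2 were lost) and 1 gene for the interaction. Correlations of same-numbered libraries beyond batch were 0.02 to 0.16, so the numbers were not taken to pair the libraries. Such values cannot exclude pairing.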
